A study of Mus musculus with 6 samples.

Results

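Aminoacyl tRNA synthetases are the enzymes that load each tRNA with its amino acid before the ribosome can use it. The list held 36 mouse genes, 20 for enzymes of the cytosol and 16 for enzymes of mitochondria (symbols ending in 2), and members were the rows of the authors' longer gene table whose symbol equals a listed name. Of the 36, 34 had a row among 13192 genes, all 20 cytosolic and 14 mitochondrial, while Mars2 and Wars2 were not analysed here. All libraries came from mouse cortex at postnatal day 25, as RNA recovered with HA-tagged ribosomes by an anti-HA antibody. The 3 Rheb cKO libraries are titled Rheb floxp/floxp, Ribo-HA k/+ and Syn-Cre, and their genotype label reads Rheb knockdown. The 3 Control libraries are titled Rheb floxp/floxp and Ribo-HA k/+, so floxed Rheb and the Ribo-HA allele are shared by both groups. Syn-Cre is a name used for Cre recombinase under a neuronal synapsin promoter, and the labels name no Cre for Control. Whether Control ribosomes carried the tag at all, and in which cells, is not stated. A difference in recovery between the groups therefore cannot be told apart from the effect of Rheb.

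Most cells read separate nuclear genes for the cytosolic and the mitochondrial enzyme of an amino acid, and the mitochondrial proteins are imported to serve the few proteins made inside the organelle. Several cytosolic enzymes sit together in a multisynthetase complex held by the scaffold proteins Aimp1, Aimp2 and Eef1e1. Many cytosolic synthetase genes are transcribed under ATF4, a transcription factor made when amino acids run short, and in cultured mouse cells mTORC1, the kinase complex that Rheb switches on, raises ATF4. Inherited variants of synthetase genes often show themselves in the nervous system, as peripheral neuropathy for some cytosolic enzymes and as leukodystrophy, epilepsy or hearing loss for mitochondrial ones.

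Values are FPKM, a fragment count corrected for transcript length and library size, deposited as 1 pooled value per gene and group, so no library value, spread or depth is known and no SD can be given. Nothing in the labels ties a library to an animal, so the authors' q-values may reflect technical spread alone. In the authors' deposited table Rheb stood at 9.20 FPKM in Rheb cKO, against 22.7 FPKM in Control (log2 fold -1.30, Cuffdiff q = 0.00161). The 10 neuron markers examined lay between 14.4 and 981 FPKM in Rheb cKO and between 12.5 and 986 FPKM in Control, with a median log2 fold of 0.21. Cuffdiff called 0 of these 10 at a q under 0.05, against 8.72% of all genes. At an unadjusted p under 0.05 it placed 3 above (3 of 10, where 11.5% of all genes were higher at that threshold) and 0 below Control. Transcripts of oligodendrocytes, the myelin-forming cells, were also abundant: 10 markers summed to 1340 FPKM in Rheb cKO, against 3757 FPKM in Control. At a q under 0.05, 10 of 10 were called lower, against 4.58% of all genes. In RNA recovered with tagged ribosomes, fewer cells of a type, less RNA per cell and a difference in recovery cannot be told apart. The part of this shift in any synthetase value was not tested.

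At the authors' threshold 1 synthetase transcript differed between the groups. By the authors' deposited table, 1 of 34 members passed a Cuffdiff q under 0.05, or 2.94%, against 8.72% of all genes tested. That gene, Lars2, encodes the mitochondrial leucine enzyme and rose, where 4.14% of all genes were called higher. No member (0 of 34) was called lower, against 4.58% of all genes. At an unadjusted p under 0.05 the table holds 6 members, or 17.6%, against 21.2% of all genes, and all 6 were higher in Rheb cKO, where 11.5% of all genes passed that threshold on the higher side. Without any test, 23 of 34 members (67.6%) had the higher FPKM in Rheb cKO, against 54.6% of all genes. The median log2 fold over the 34 members was 0.11, against 0.03 over all genes. These shares lie near the background or below it for the calls at a q under 0.05, and no test of the list was made.

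**Figure D1:**
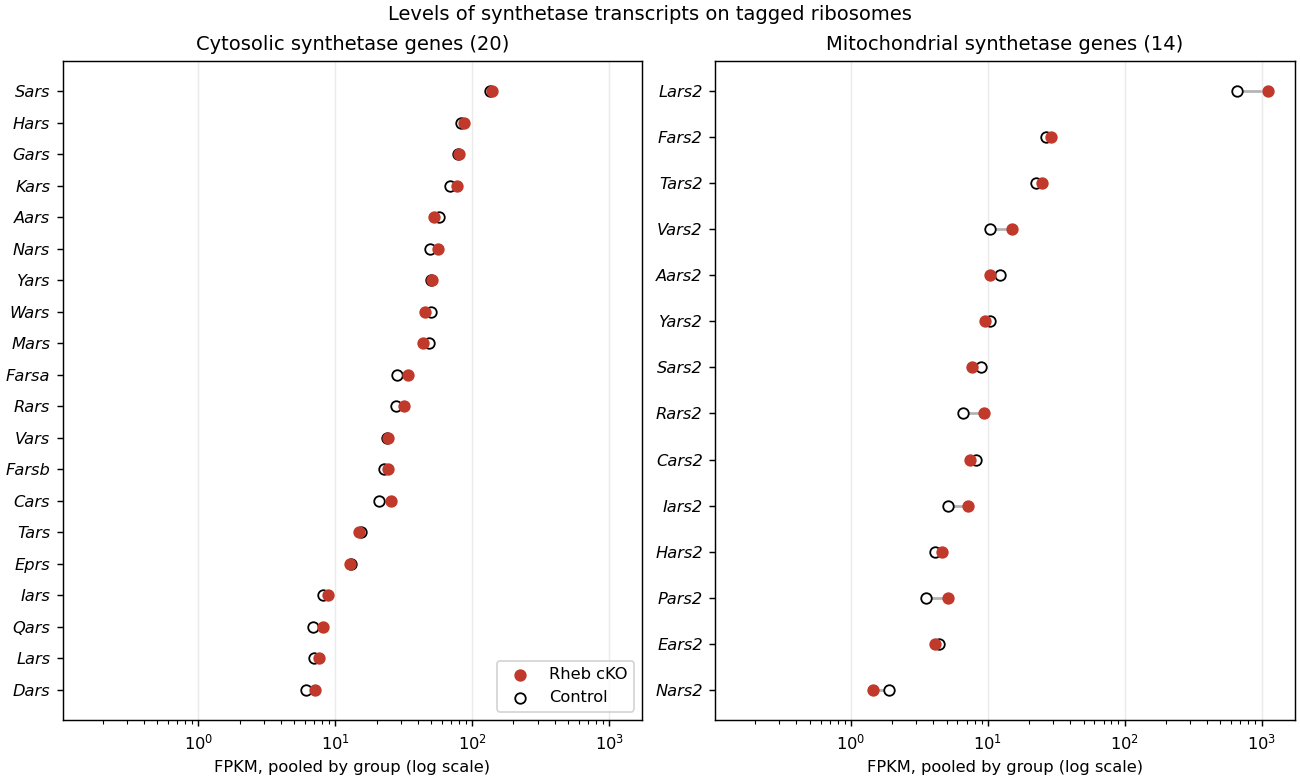
FPKM of each synthetase gene on a log axis, with filled points for Rheb cKO and open points for Control, 20 cytosolic genes on the left and 14 mitochondrial genes on the right. Cytosolic genes span 7.06 to 139 FPKM in Rheb cKO, Lars2 stands alone at 1118 FPKM in Rheb cKO and 662 FPKM in Control, and the other mitochondrial genes reach at most 29.0 FPKM in Rheb cKO and 26.7 FPKM in Control.

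The cytosolic enzymes differed far more from each other in level than any of them differed between the groups. Their median FPKM was 32.9 in Rheb cKO, against 28.0 in Control, and their summed FPKM was 830 in Rheb cKO and 799 in Control, 104% of the Control sum. Sars was the highest and Dars the lowest in both groups, 19.6 times apart in Rheb cKO and 22.2 times apart in Control. By the authors' deposited table, 0 of 20 were called by Cuffdiff at a q under 0.05, against 8.72% of all genes. At an unadjusted p under 0.05 only Farsa passed, or 5% of the 20, against 21.2% of all genes. Farsa was on the higher side, where 11.5% of all genes passed. The log2 folds ran from -0.15 to 0.30 with a median of 0.086. Of the 20, 17 lay between the lower and upper quartile of all genes (-0.16 and 0.22), 3 above it and 0 below it. Among the 10138 genes with a mean FPKM in the range of the members other than Lars2, 8.96% were called.

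A composite element to which ATF4 and its partners bind was looked for in the promoters of the members, because Atf4 itself fell in these data. The window ran from 250 bases before to 50 after the RefSeq start of the gene (GRCm38.p6), and the motif was TGATGNAA, searched on both strands. A promoter was found for 13 of 20 cytosolic and 12 of 14 mitochondrial members. The motif was present in 5 of the 13 cytosolic promoters (38.5%) and in 0 of the 12 mitochondrial ones, against 4.51% of 27025 genes with a promoter in the same table. With the longer motif TGATGNAAT the count was 3 of 13 cytosolic promoters and 0 of 12 mitochondrial ones, against 1.08% of all. A match is a run of letters, and its use by any factor was not measured here. The 5 cytosolic genes are Aars, Gars, Iars, Tars and Yars. A match in each is shown in a window of 30 bases, read 5′ to 3′ on the strand of the gene, with the match in capitals. A match that begins with TT is the motif read on the opposite strand. Aars has another match, not shown, which begins at -112 and fits the longer motif.
Aars: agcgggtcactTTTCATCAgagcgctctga
Gars: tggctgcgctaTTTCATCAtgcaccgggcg
Iars: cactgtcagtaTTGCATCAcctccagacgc
Tars: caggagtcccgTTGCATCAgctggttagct
Yars: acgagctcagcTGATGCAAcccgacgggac
In GRCm38.p6 the Aars window is chr8:111033840-111033869 on the plus strand, and the match begins at position 10 from the start. The Gars window is chr6:55037960-55037989 on the plus strand, with the match beginning at -30. For Iars it is chr13:49682126-49682155 on the plus strand, with the match beginning at 8. The Tars window is chr15:11399655-11399684 on the minus strand, with the match beginning at -15. For Yars it is chr4:129189895-129189924 on the plus strand, with the match beginning at 4.

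None of these 5 genes was called by Cuffdiff, against 8.72% of all genes. At an unadjusted p under 0.05, 0 of 5 passed, against 21.2% of all genes. Their log2 folds lay on either side of 0. Aars, the alanine enzyme, had 52.4 FPKM in Rheb cKO, against 57.5 FPKM in Control (log2 fold -0.13, q = 0.595 in the authors' deposited table). Gars, the glycine enzyme whose single gene serves both cytosol and mitochondria, had 79.9 FPKM in Rheb cKO and 78.4 FPKM in Control (0.03, q = 0.946 in the authors' deposited table), and its sign turns when the median of all genes is subtracted. Iars, the isoleucine enzyme, had 8.82 FPKM in Rheb cKO and 8.06 FPKM in Control (0.13, q = 0.683 in the authors' deposited table). These 3 genes lie in different parts of the expression range, and none was far from its Control level. Tars, the threonine enzyme, had 15.0 FPKM in Rheb cKO and 15.5 FPKM in Control (-0.05, q = 0.911 in the authors' deposited table). Yars, the tyrosine enzyme, had 50.9 FPKM in Rheb cKO and 49.7 FPKM in Control (0.03, q = 0.953 in the authors' deposited table). The median log2 fold of the 5 genes with a match was 0.03, beside 0.13 for the 8 cytosolic genes whose promoter window holds none.

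Of the 8 enzymes of the multisynthetase complex 6 had a log2 fold above 0 (75.0%, against 54.6% of all genes), with a median of 0.15. Cuffdiff called 0 of the 8 at a q under 0.05, against 8.72% of all genes. At an unadjusted p under 0.05, 0 of the 8 passed, against 21.2% of all genes. A list this short cannot show a share below that of all genes. Kars, the lysine enzyme and like Gars a single gene for both compartments, had 77.4 FPKM in Rheb cKO and 69.2 FPKM in Control (0.16, q = 0.515 in the authors' deposited table). It was the most abundant of the 8. Rars, the arginine enzyme, had 31.7 FPKM in Rheb cKO and 27.8 FPKM in Control (0.19, q = 0.442 in the authors' deposited table). Dars, the aspartate enzyme, had 7.06 FPKM in Rheb cKO and 6.09 FPKM in Control (0.21, q = 0.470 in the authors' deposited table). Qars, the glutamine enzyme, had 8.16 FPKM in Rheb cKO and 6.89 FPKM in Control (0.24, q = 0.862 in the authors' deposited table). Qars had the highest log2 fold of the complex and, after Eprs, the highest q. Lars, the leucine enzyme that also reports leucine to mTORC1 in mammalian cells, had 7.64 FPKM in Rheb cKO and 6.96 FPKM in Control (0.13, q = 0.681 in the authors' deposited table). Eprs, which joins the glutamate and proline enzymes in 1 protein, had 12.9 FPKM in Rheb cKO and 13.0 FPKM in Control (-0.01, q = 0.979 in the authors' deposited table). Mars, the methionine enzyme, had 43.6 FPKM in Rheb cKO and 48.1 FPKM in Control (-0.14, q = 0.817 in the authors' deposited table). Mars and Eprs were the members of the complex below 0. Of the scaffold genes, 0 of 3 were called and 0 passed an unadjusted p under 0.05, beside the same shares of all genes. Aimp1 had 78.8 FPKM in Rheb cKO and 75.0 FPKM in Control. Aimp2 had 39.3 FPKM in Rheb cKO and 41.6 FPKM in Control. Eef1e1 had 16.3 FPKM in Rheb cKO and 15.8 FPKM in Control. The 12 cytosolic enzymes outside the complex had a median log2 fold of 0.035.

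The remaining cytosolic enzymes held the highest fold and the highest level of the compartment. Cars, the cysteine enzyme, had 25.5 FPKM in Rheb cKO and 20.8 FPKM in Control (0.30, q = 0.306 in the authors' deposited table). Farsa, the alpha subunit of the phenylalanine enzyme, had 34.2 FPKM in Rheb cKO and 28.2 FPKM in Control (0.28, unadjusted p = 0.0438, Cuffdiff q = 0.217 in the authors' deposited table). Its partner Farsb, the beta subunit, had 24.4 FPKM in Rheb cKO and 22.7 FPKM in Control (0.10, q = 0.786 in the authors' deposited table). Farsa was the more abundant subunit in both groups. Nars, the asparagine enzyme, had 56.5 FPKM in Rheb cKO and 49.0 FPKM in Control (0.21, q = 0.337 in the authors' deposited table). Hars, the histidine enzyme, had 86.8 FPKM in Rheb cKO and 82.6 FPKM in Control (0.07, q = 0.836 in the authors' deposited table). Sars, the serine enzyme, had 139 FPKM in Rheb cKO and 135 FPKM in Control (0.04, q = 0.929 in the authors' deposited table). Sars was the most abundant cytosolic member and differed least in proportion among these 3. Vars, the valine enzyme, had 24.2 FPKM in Rheb cKO and 23.7 FPKM in Control (0.03, q = 0.966 in the authors' deposited table). Wars, the tryptophan enzyme, which interferon induces in many cells, had 44.8 FPKM in Rheb cKO and 49.8 FPKM in Control (-0.15, q = 0.539 in the authors' deposited table). Wars had the lowest log2 fold of the cytosolic members.

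Some of these values share sequence with other genes and are uncertain to that extent. Over the 34 members a median of 1.67% of 31-base words also occurred in another gene, and 8 members exceeded 5%. Iars shares 14.5% with the pseudogene Gm4849, and Aars shares 13.8% with Exosc6 on the same strand. The remaining ones over 5% were Farsb and Hars in the cytosol and Iars2, Fars2, Cars2 and Vars2 in mitochondria. Mars carries the same locus entry as Ddit3 and Gm4189 in the authors' table, Yars the same as C77080 and Farsb the same as Sgpp2. The same holds for Iars2 with Rab3gap2, Cars2 with Carkd, Ears2 with Ubfd1, and Hars with Hars2.

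By structural class the cytosolic enzymes had similar medians. Synthetases fall into class I and class II, which differ in the fold of the catalytic domain, and Eprs holds 1 of each. The 9 other class I genes had a median log2 fold of 0.13 and the 10 class II genes 0.086. In either class 0 were called, against 8.72% of all genes.

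**Figure D2:**
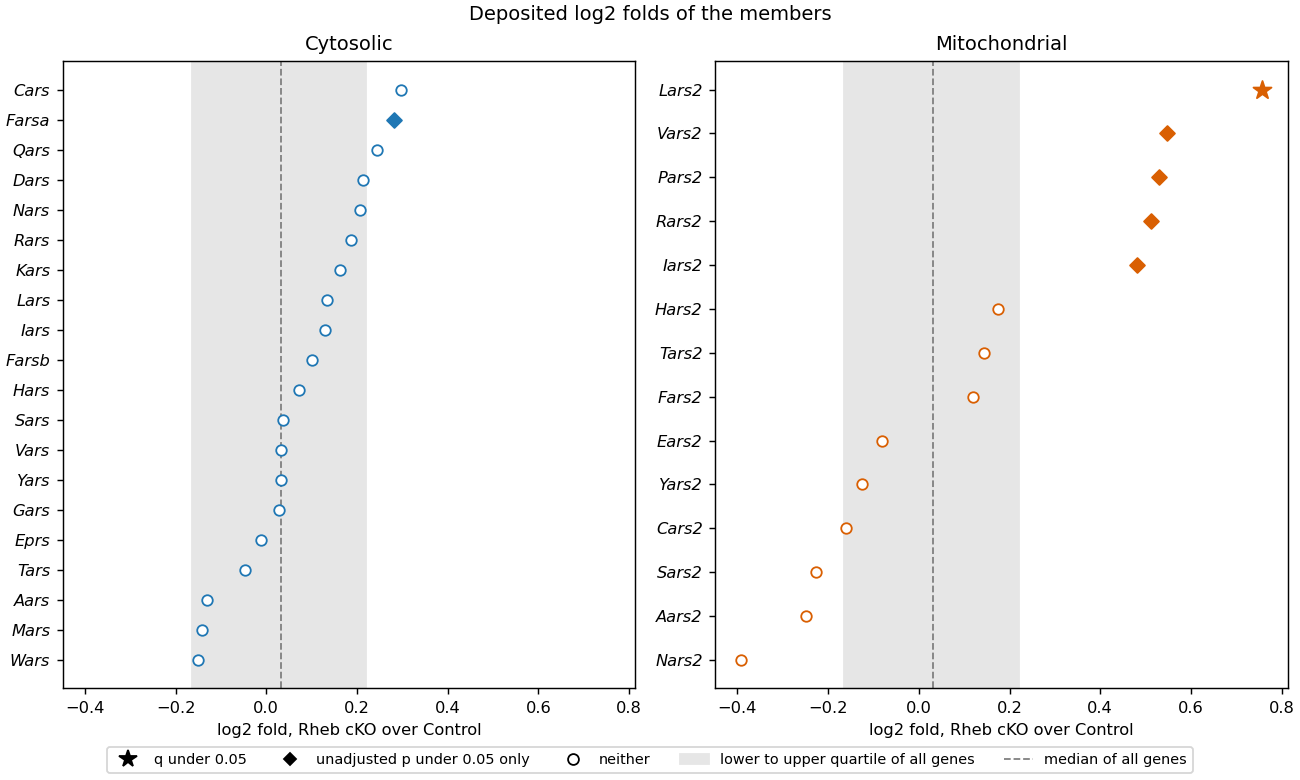
Log2 fold of Rheb cKO over Control for each member, cytosolic on the left and mitochondrial on the right. The grey band runs between the lower and upper quartile of all genes, stars mark a q under 0.05 and diamonds an unadjusted p under 0.05 only. Of 20 cytosolic genes 17 lie in the band, while 5 of 14 mitochondrial genes lie above it and 3 below it.

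Mitochondrial synthetase genes were lower in level and more scattered in fold. Their median FPKM was 8.52 in Rheb cKO, against 8.60 in Control. The log2 folds ran from -0.39 to 0.76 with a median of 0.13, and 8 of 14 lay above 0. Of the 14, 6 lay between the quartiles of all genes, 5 above and 3 below. By the authors' deposited table, 1 of 14 was called (7.14%, against 8.72% of all genes). At an unadjusted p under 0.05, 5 were higher (35.7%, against 11.5% of all genes) and 0 were lower. The median of this list exceeded the cytosolic median by 0.045 on the log2 scale, written in the tables as cytosolic minus mitochondrial, -0.045. That gap shrank to -0.019 without Hars and Hars2, and pooled values give it no error, so whether the compartments differ was not tested.

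Lars2 was the member that rose, and it stood apart in level before any comparison. The authors' deposited table gives 1118 FPKM in Rheb cKO, against 662 FPKM in Control (log2 fold 0.76, 1.69 times the Control value, Cuffdiff q = 0.00161). The gene spans chr9:123366927-123462666 on the plus strand in mm10 (GENCODE M21). It ranked 59 by FPKM among all 13192 genes in Rheb cKO and 139 in Control, and its fold exceeded that of 97.0% of genes. Fars2, the next most abundant mitochondrial member, was 38.5 times lower than Lars2 in Rheb cKO and 24.8 times lower in Control. Lars2 held 89.2% of the summed mitochondrial FPKM in Rheb cKO and 84.1% in Control. That sum was 1254 FPKM in Rheb cKO and 787 FPKM in Control with Lars2, but 136 FPKM in Rheb cKO and 125 FPKM in Control without it.

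Of 4 rows for ribosomal RNA, 3 were called higher in Rheb cKO, as was Lars2 (75%, against 4.14% of all genes). These rows were picked for display after their values were seen, by the annotated type of the row, so their count is no independent support. In the authors' deposited table Rn18s-rs5, an 18S ribosomal RNA sequence, had 3741 FPKM in Rheb cKO and 2307 FPKM in Control (0.70, q = 0.0142). The mitochondrial large ribosomal RNA mt-Rnr2 had 281 FPKM in Rheb cKO and 168 FPKM in Control (0.74, q = 0.00161 in the authors' deposited table). Its small partner mt-Rnr1 had 352 FPKM in Rheb cKO and 249 FPKM in Control (0.50, q = 0.00161 in the authors' deposited table). All 3 rose, and the log2 fold of Lars2, 0.76, was above each of theirs. The remaining row of this type, Gm23257, had 2.72 FPKM in Rheb cKO and 4.77 FPKM in Control (-0.81, q = 0.768 in the authors' deposited table). Annotated Lars2 transcripts shared exact stretches of at most 14 bases with these 4 rows on either strand. The 28S ribosomal RNA was not analysed here, and the part of ribosomal RNA in the Lars2 value was not tested.

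The other mitochondrial genes on the higher side were Vars2, Pars2, Rars2 and Iars2, none of which was called. Vars2, the valine enzyme, had 15.1 FPKM in Rheb cKO and 10.3 FPKM in Control (0.55, unadjusted p = 0.0451, Cuffdiff q = 0.220 in the authors' deposited table). Pars2, the proline enzyme, had 5.14 FPKM in Rheb cKO and 3.56 FPKM in Control (0.53, unadjusted p = 0.00845, Cuffdiff q = 0.0783 in the authors' deposited table). Rars2, the arginine enzyme, whose loss causes pontocerebellar hypoplasia in people, had 9.39 FPKM in Rheb cKO and 6.58 FPKM in Control (0.51, unadjusted p = 0.04995, Cuffdiff q = 0.236 in the authors' deposited table). These 3 shared nearly the same fold but not the same p, and Pars2 came closest to the threshold after Lars2. Iars2, the isoleucine enzyme, had 7.10 FPKM in Rheb cKO and 5.09 FPKM in Control (0.48, unadjusted p = 0.0452, Cuffdiff q = 0.221 in the authors' deposited table). Of the distinct 31-base words in Iars2 transcripts, 22.4% also occur in Rab3gap2 on the opposite strand, and Rab3gap2 had 11.2 FPKM in Rheb cKO and 11.7 FPKM in Control. The library kit keeps the strand, but whether counting used it is not given, and if it did not, reads of such overlapping genes cannot be told apart.

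In the middle of the mitochondrial range stood Hars2, Tars2, Fars2 and Ears2. Hars2, the histidine enzyme, had 4.63 FPKM in Rheb cKO and 4.11 FPKM in Control (0.17, q = 0.893 in the authors' deposited table). Hars and Hars2 lie head to head on chromosome 18, overlap at their starts and carry the same locus entry in the authors' table. Hars reaches to base 36783205 and Hars2 begins at base 36783008. Tars2, the threonine enzyme, had 25.04 FPKM in Rheb cKO and 22.7 FPKM in Control (0.14, q = 0.778 in the authors' deposited table). Fars2, the phenylalanine enzyme, had 29.0 FPKM in Rheb cKO and 26.7 FPKM in Control (0.12, q = 0.744 in the authors' deposited table). Nrn1, a gene active in neurons, shares 8.13% of the 31-base words of Fars2 on the opposite strand and had 103 FPKM in Rheb cKO and 104 FPKM in Control. Ears2, the glutamate enzyme, had 4.12 FPKM in Rheb cKO and 4.36 FPKM in Control (-0.08, q = 0.961 in the authors' deposited table).

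On the lower side were Yars2, Cars2, Sars2, Aars2 and Nars2. Of these 5, 0 passed a Cuffdiff q under 0.05, against 8.72% of all genes. At an unadjusted p under 0.05, 0 passed, against 21.2% of all genes. Yars2, the tyrosine enzyme, had 9.46 FPKM in Rheb cKO and 10.3 FPKM in Control (-0.13, q = 0.800 in the authors' deposited table). Cars2, the cysteine enzyme, had 7.37 FPKM in Rheb cKO and 8.24 FPKM in Control (-0.16, q = 0.884 in the authors' deposited table). Sars2, the serine enzyme, had 7.65 FPKM in Rheb cKO and 8.96 FPKM in Control (-0.23, q = 0.534 in the authors' deposited table). All 3 lay below their Control level by less than the values on the higher side lay above it. Aars2, the alanine enzyme, whose loss causes a leukodystrophy with ovarian failure in people, had 10.4 FPKM in Rheb cKO and 12.4 FPKM in Control (-0.25, unadjusted p = 0.0983, Cuffdiff q = 0.351 in the authors' deposited table). Nars2, the asparagine enzyme, had 1.44 FPKM in Rheb cKO and 1.89 FPKM in Control (-0.39, q = 0.536 in the authors' deposited table). It was the least abundant member and had the lowest fold of all 34.

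**Figure D3:**
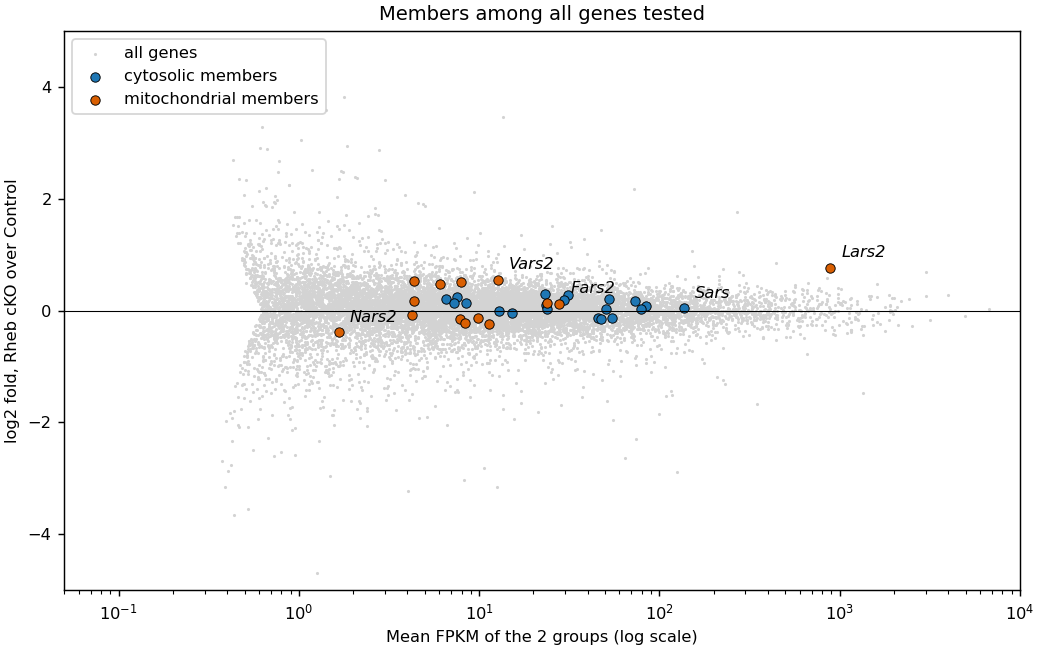
Log2 fold of Rheb cKO over Control against mean FPKM on a log axis, for all genes with a finite fold (grey) and for the cytosolic (blue) and mitochondrial (orange) members. Members other than Lars2 sit inside the cloud of genes of like level, and Lars2 lies at a log2 fold of 0.76 near the high end of expression.

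Cytosolic and mitochondrial enzymes for the same amino acid often differed in the sign or size of their fold. There were 15 pairings, with Eprs set against both Ears2 and Pars2 and both Phe subunits against Fars2, so they share members. The mitochondrial gene had the higher log2 fold in 8 and the cytosolic gene in 7, with a median difference of 0.019, and 9 of 15 had folds of 1 sign. The leucine pair differed most, Lars2 at 0.76 and Lars at 0.13 in the authors' deposited table. Next was the asparagine pair, in the opposite sense, with Nars2 at -0.39 and Nars at 0.21 in the authors' deposited table. The pair with the least difference was Fars2 at 0.12 and Farsb at 0.10 in the authors' deposited table. In level the cytosolic gene was higher in 12 of 15 pairings in each group. Nars stood 39.2 times above Nars2 in Rheb cKO and 25.9 times in Control, and Hars 18.7 times above Hars2 in Rheb cKO and 20.1 times in Control. The leucine, threonine and Farsb pairings were the exceptions, where the mitochondrial gene was more abundant.

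**Figure D4:**
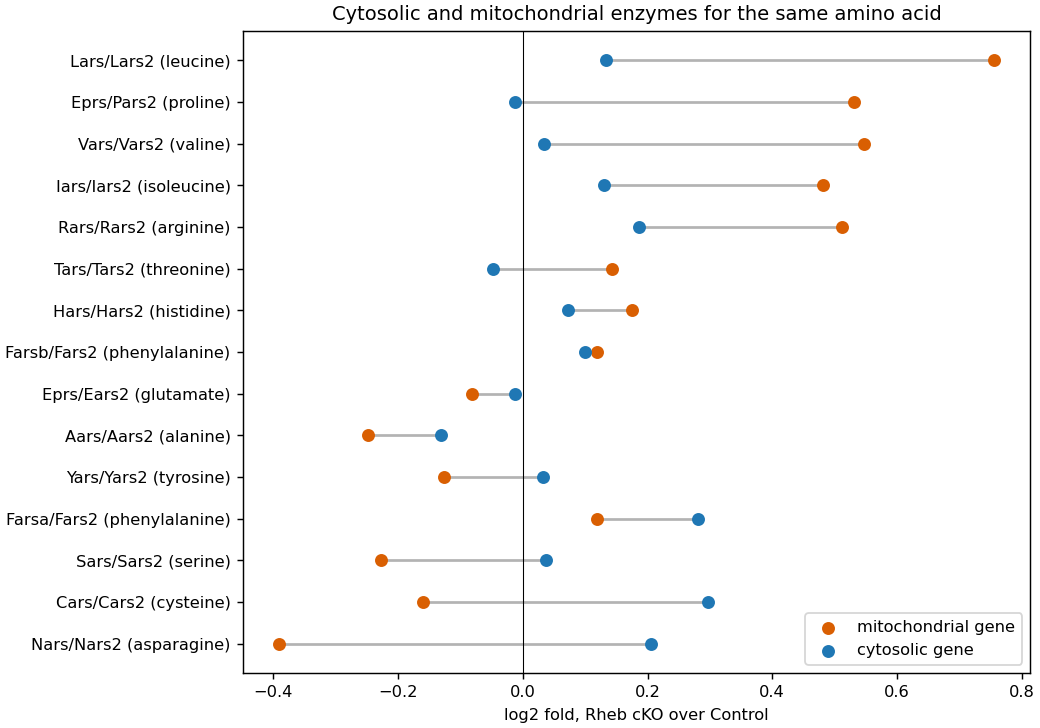
Log2 fold of Rheb cKO over Control for the mitochondrial (orange) and cytosolic (blue) gene of each pairing, ordered by their difference. Mitochondrial genes spread from -0.39 to 0.76 and the paired cytosolic genes from -0.13 to 0.30, and the mitochondrial gene is on the right in 8 of 15.

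Some other genes of the ATF4 programme fell, Atf4 among them. This list covers Atf4 and genes of amino acid synthesis, transport and stress that ATF4 is known to induce. By the authors' deposited table, 5 of its 26 measured genes were called lower (19.2%, against 4.58% of all genes). Another 1 was called higher (3.85%, against 4.14% of all genes), and the median log2 fold was -0.19. The fall of several of these genes was known when the list was drawn up, so its count is no independent support. Atf4 had 140 FPKM in Rheb cKO, against 195 FPKM in Control (-0.48, Cuffdiff q = 0.00625 in the authors' deposited table). Phgdh, the entry enzyme of serine synthesis, fell to 51.7 FPKM in Rheb cKO, against 74.8 FPKM in Control (-0.53, q = 0.00161 in the authors' deposited table). Mthfd2, a mitochondrial folate enzyme, fell to 1.57 FPKM in Rheb cKO, against 2.97 FPKM in Control (-0.92, q = 0.0142 in the authors' deposited table). Sesn2, an inhibitor of mTORC1, and Gpt2, which makes alanine in mitochondria, also fell in the authors' deposited table (-0.68 and -0.44). Slc3a2, a subunit of amino acid transporters, rose to 41.9 FPKM in Rheb cKO, against 32.2 FPKM in Control (0.38, q = 0.0327 in the authors' deposited table). Asns, the asparagine-making enzyme and a textbook ATF4 target, had 45.1 FPKM in Rheb cKO and 45.3 FPKM in Control (-0.0058, q = 0.992 in the authors' deposited table). Cytosolic synthetases, with a median of 0.086 and 0 of 20 called, had a median of the opposite sign to that of this list. The lists overlapped across 0, with 5 of 20 cytosolic members below it and 8 of 26 genes of the ATF4 list above it, and the difference between them was not tested. Astrocytes and oligodendrocytes also express genes such as Phgdh. The 8 astrocyte markers summed to 1674 FPKM in Rheb cKO and 2073 FPKM in Control, and 6 of the 8 had a log2 fold below 0. At a q under 0.05, 3 were called lower (37.5%, against 4.58% of all genes) and 1 higher (12.5%, against 4.14%). Of 8 endothelial and mural markers 4 had a row, which summed to 14.6 FPKM in Rheb cKO and 20.8 FPKM in Control. Of these, 2 of 4 were called lower (50%, against 4.58% of all genes), with a median log2 fold of -0.44. The part of either list in the ATF4 values was not tested.

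The same promoter element was present in 6 of the 22 genes of this list with a promoter (27.3%). Of these 6, Pycr1, a proline-making enzyme, had the lowest fold (-0.71, q = 0.120 in the authors' deposited table) and Chac1, which breaks down glutathione, the highest (0.30, q = 0.476 in the authors' deposited table). Both windows are printed, with the match in capitals, for comparison with those of Iars and Yars above.
Pycr1: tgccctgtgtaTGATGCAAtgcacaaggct
Chac1: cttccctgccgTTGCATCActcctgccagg
They are chr11:120643833-120643862 on the minus strand and chr2:119351038-119351067 on the plus strand in GRCm38.p6. The 6 genes with a match had a median log2 fold of -0.089 and the 16 without one -0.32, and this difference was not tested.

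**Figure D5:**
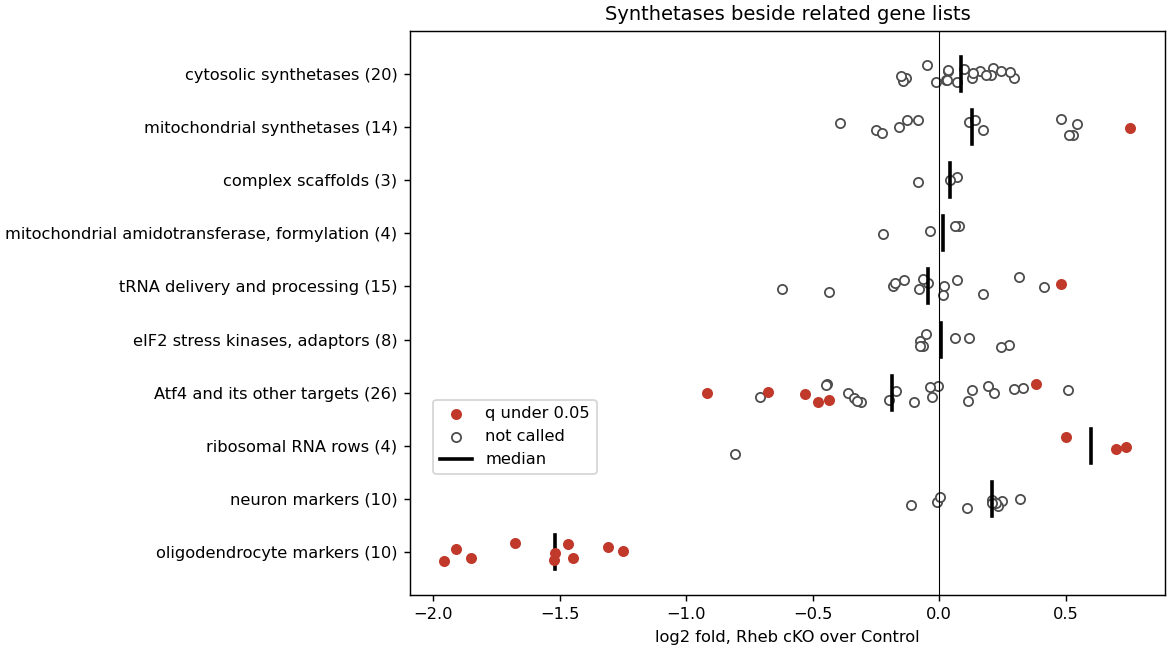
Log2 fold of Rheb cKO over Control for the members of each list, with filled points for a q under 0.05, open points otherwise and a bar at the median (number of measured genes in brackets). Cytosolic synthetases cluster around 0.086 with no filled point, Atf4 and its other targets around -0.19 with 5 filled points below 0 and 1 above it, and the 10 oligodendrocyte markers lie at -1.25 or below.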

How the data were processed

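RNA recovered with HA-tagged ribosomes from cortex was sequenced in 6 libraries, 3 Rheb cKO and 3 Control, grouped by their titles. Per the labels' protocols, the library kit was a TruSeq Stranded mRNA kit. TopHat2 2.1.0, Cuffdiff 2.2.1 and the build mm10 are named, without role or settings, per the submitters' processing notes. For the annotation release and the strand setting of counting, the sources used here give nothing. Per the file headers, each gene has a single deposited FPKM for Rheb cKO and another for Control, which the authors pooled over libraries. The authors' deposited log2 fold divides Rheb cKO by Control, and it equals the ratio of the printed FPKM with nothing added. The deposited test score, p-value and q-value of each gene were made by the authors over all genes listed, in columns of the form Cuffdiff writes, and a gene was called at a q under 0.05. Depth per library is unknown, so no interval is given, and precision rests on the authors' q-values.

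From these, medians, sums, ratios and counts were computed. Gene positions, transcript length and GC came from GENCODE M21 (GRCm38), in which 99.7% of the gene IDs were found. Shared sequence was counted in 31-base words of all annotated transcripts. Promoters came from RefSeq (GRCm38.p6), matched by symbol or synonym. Computation used pandas 2.3.3, numpy 2.4.6 and scipy 1.17.1 under Python 3.11.15, figures used matplotlib 3.10.9, and the adjustment and trend steps were tested on simulated data. The members, lists and motif were chosen with earlier results of these data known. Named genes are all members (the extremes of fold and level and the most and least different pairs in full), called genes of the related lists (up to 4 each, by absolute fold), Atf4 and Rheb, and a few others chosen after their values were seen. These are Gpt2, Slc3a2, Asns, Chac1, Pycr1, the ribosomal RNA rows, Rab3gap2, Nrn1, the scaffold genes and the genes named in the closing section. Alternatives varied the pseudocount, centring, length and GC trend, low-value filter, membership and threshold. Some items are not reported here.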

Additional observations from a re-analysis of the deposited data

How the results depend on the processing

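The median log2 fold was 0.086 for cytosolic and 0.13 for mitochondrial members, a difference of -0.045. These 3 values kept their sign under every alternative run. Centring on the median of all genes whose mean FPKM reached 1 moved the cytosolic median to 0.054 and turned the fold of Gars to -0.0032. Leaving out Hars and Hars2 moved the difference to -0.019, with the cytosolic median at 0.10 and the mitochondrial median at 0.12. At a q under 0.10 there were 2 called members, 2 of them mitochondrial (Lars2 and Pars2). At an unadjusted p under 0.05 there were 6, of which 1 was cytosolic and 5 mitochondrial. The other results, with 1 or 0.1 added to each FPKM, the length and GC trend removed, a mean FPKM of 5 or more, Gars and Kars left out, a q under 0.01, adjustment over genes whose mean FPKM reached 1, or the shorter table of called genes, stayed within 1.5 times. Of 34 single-gene folds 34 stayed within 1.5 times with 0.1 added, 33 with 1 added, 27 with centring and 26 with the trend removed. The alternative without Lars2 was chosen after seeing the data. No paired analysis was possible because the values are pooled by group and carry no library, and leaving out each replicate was not run for the same reason. Depth is unknown for every value.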

Other observations

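Lists for other steps of tRNA charging and delivery were examined as well. The mitochondrion has no synthetase of its own for glutamine tRNA. The amidotransferase genes Gatb, Gatc and Qrsl1 make its glutamine tRNA, while Mtfmt formylates the starter tRNA. Cuffdiff called 0 of these 4, against 8.72% of all genes, and 0 passed an unadjusted p under 0.05, against 21.2%. Their median log2 fold was 0.014. Of 15 genes for tRNA delivery and processing 1 was called (6.67%, against 8.72% of all genes). An unadjusted p under 0.05 was met by 4 (26.7%, against 21.2% of all genes). Of these, 3 were on the higher side (20% of the list, against 11.5% of all genes) and 1 on the lower side. The called gene was Eef1a1, the elongation factor that carries charged tRNA to the ribosome. It had 1875 FPKM in Rheb cKO and 1342 FPKM in Control (0.48, Cuffdiff q = 0.0432 in the authors' deposited table), and it has many pseudogenes, so its value depends on how shared reads were assigned. The median of that list was -0.043. Kinases, adaptors and other genes of the stress pathway upstream of ATF4 had a median of 0.0066 over 8 genes. Of these 8, 0 were called, against 8.72% of all genes. At an unadjusted p under 0.05 there was 1 of the 8 (12.5%, against 21.2% of all genes).

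Tarsl2, a threonine enzyme of the cytosol and nucleus that was not on the list of members, was named after its value was seen and was not called. It had 4.94 FPKM in Rheb cKO and 3.29 FPKM in Control (0.59, unadjusted p = 0.0440, Cuffdiff q = 0.218 in the authors' deposited table).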
